A study of Mus musculus with 6 samples.

Results

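The lesion under blockade of integrin αvβ8 was followed from 7 to 21 days post injury (dpi) by setting the single-nucleus RNA-seq library of ADWA11-treated mice at 21 dpi against the one at 7 dpi. Both libraries were chosen by their labelled treatment and time, and no measured value entered the choice. Barcodes with fewer than 1000 unique molecular identifiers (UMIs) or with 5% or more of their UMIs from mitochondrial genes were left out. This kept 10914 of 11894 barcodes at 7 dpi and 12656 of 13519 at 21 dpi, together 23570 of the 60729 kept nuclei in the 6 libraries of the series. All of these mice were wild type and had a photothrombotic injury, in which light and a circulating dye close cortical vessels. ADWA11 is an antibody that blocks αvβ8. Per the series' design text it was given at 0 and 7 dpi, and per the study's methods it was injected into the peritoneal cavity on the day of injury and weekly until collection. Each library pooled dissected lesions of 1 male and 1 female mouse, and nuclei were sorted on the DNA dye DAPI with no selection for cell type. The age of the mice is not given in the labels. The Ctrl libraries at 7 and 21 dpi, from wild-type mice with the same injury and no treatment named in their labels (19975 kept nuclei), are given beside ADWA11 as the course without the antibody. Each time point was 1 library per condition, so no difference could be tested across mice.

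TGF-β is secreted together with a latency peptide that keeps it inactive, and αvβ8 is one of the integrins that bind this peptide and let the cytokine signal. In the brain this integrin is known on astrocytes and other glia, and TGF-β signalling keeps microglia in their homeostatic state. After cortical injury fibroblasts enter the lesion, pass through a contractile, matrix-producing myofibroblast state and remain as a scar that also holds macrophages and lymphocytes.

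The 2 ADWA11 libraries held 105241662 UMIs at 7 dpi and 84164716 at 21 dpi, and the kept nuclei had medians of 7877.5 and 5471.5 UMIs. They shared 61 barcodes, 0.513% of the smaller library, and other pairs of the 6 libraries shared 21 to 54. Classes of nuclei were named from marker genes as fibroblast-like, myeloid-like and so on, and are called fibroblast, myeloid and so on from here. For each class and library the UMIs of all nuclei were added up, and levels are given as CPM, counts scaled to a fixed total over all but the mitochondrial genes. A gene is said to have risen or fallen when its CPM was at least 2-fold higher or lower at 21 dpi, a log2 ratio of at least 1 or at most -1. Only genes with at least 50 UMIs over both libraries and a UMI in at least 5% of the class's nuclei in either library were considered. Nuclei with Xist UMIs and no Y-linked UMIs stood for the female mouse, and those with Y-linked and no Xist UMIs for the male mouse, so each ratio was also taken for 1 female and 1 male mouse per time point. The mice of the 2 time points were different animals, so a ratio in female or in male nuclei compares 2 animals and follows neither. Below, in both mice means in female nuclei and in male nuclei alike. Of the kept nuclei, 5321 were female and 3348 male at 7 dpi, and 3456 were female and 7052 male at 21 dpi. Nuclei with UMIs of both kinds (1950 and 1287) or neither (295 and 861) entered the sums over all nuclei only. Intervals are exact 95% intervals that cover counting error only and not the difference between mice.

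Lymphocytes and the dendritic class took a larger share of the nuclei at 21 dpi than at 7 dpi, and oligodendrocyte precursor cells (OPC) a far smaller one. T and NK cells (T/NK) went from 144 to 1132 nuclei, 1.32% (interval 1.11 to 1.55) to 8.94% (8.45 to 9.46) of the kept nuclei. That is a log2 ratio of 2.76 (2.51 to 3.02), and it was 2.35 in the female and 3.09 in the male nuclei. In Ctrl the T/NK share went from 1.21% to 2.08%, a log2 ratio of 0.78. The dendritic share went from 1.60% (175 nuclei) to 4.57% (579 nuclei), a log2 ratio of 1.51 (1.27 to 1.76), with 1.56 in female and 1.05 in male nuclei. Its course in Ctrl ran the other way, at -0.84. This class also held neutrophil and B cell markers, and its ADWA11 ratio was 0.96 with log-normalised Leiden clustering.

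OPC, the cells that divide and give rise to myelinating oligodendrocytes, made up 10.1% of nuclei at 7 dpi (1107 nuclei) and 0.316% at 21 dpi (40 nuclei). The log2 ratio was -5.004 (-5.50 to -4.55), with -3.84 in female and -5.92 in male nuclei. In Ctrl it was -1.95. Oligodendrocytes went from 57 to 23 nuclei and neurons from 49 to 12, so few of either were in the ADWA11 dissections at any time. In Ctrl oligodendrocytes took a larger share at 21 dpi, at a log2 ratio of 1.01, and the neuron share had a ratio of 0.04 over all nuclei, with 1.16 in female and -1.86 in male nuclei. How much brain around the lesion was dissected with it is not recorded in the labels, and its part in the glial shares was not tested. Neural progenitors were 1 nucleus at 7 dpi and 71 at 21 dpi (log2 ratio 5.94, interval 3.41 to 11.26), and 1 and 52 nuclei in Ctrl.

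Fibroblasts and myeloid cells together made up most nuclei at both times, and their shares moved little. Fibroblasts went from 21.8% to 26.2%, a log2 ratio of 0.27 (0.19 to 0.34), with 0.56 in female and 0.10 in male nuclei, and it turned to -0.19 with log-normalised Leiden clustering. Myeloid nuclei went from 52.4% to 45.3%, a log2 ratio of -0.21 (-2.73 without cluster 1, described with the myeloid nuclei), with -0.62 in female and 0.04 in male nuclei. In Ctrl the myeloid share went from 49.96% to 24.2%, a log2 ratio of -1.05 (-1.02 in female and -0.999 in male nuclei). The myeloid share thus stood at 45.3% in the ADWA11 library and 24.2% in the Ctrl library at 21 dpi. Endothelial, astrocyte and mural shares differed in direction or size between female and male nuclei. The endothelial log2 ratio was 1.49 in female and -0.02 in male nuclei, that of astrocytes 1.37 and -0.35, and that of mural cells 0.71 and -0.64. The Ctrl astrocyte share went from 2.28% to 10.0%, at 2.68 in female and 1.51 in male nuclei.

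**Figure D1:**
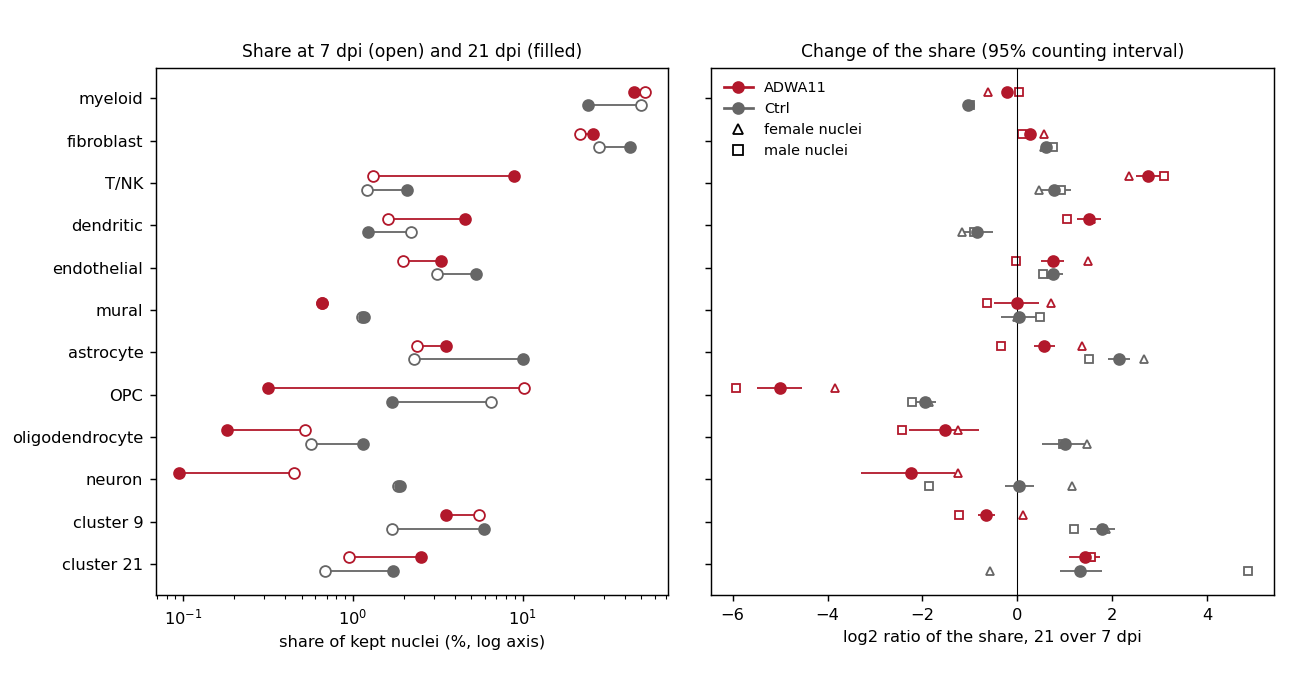
Left, share of each class among the kept nuclei of a library (percent, log axis) at 7 dpi (open circles) and 21 dpi (filled circles) for ADWA11 (red) and Ctrl (grey). Right, log2 ratio of the share at 21 over 7 dpi with its 95% counting interval, and the same ratio for female (triangles) and male (squares) nuclei, with ratios of a class at 0 nuclei not drawn. T/NK nuclei reach 8.94% under ADWA11 and OPC drop to 0.316%. The ratios of the dendritic class, which also held neutrophil and B cell markers, lie on opposite sides of 0 under ADWA11 and in Ctrl.

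In fibroblasts the 21 dpi library had less expression of cell-cycle, contractile and basement membrane genes and more of complement and of genes that act on lymphocytes. Of 11863 genes considered, 793 rose and 705 fell, 6.68% and 5.94%, and 616 (5.19%) rose and 564 (4.75%) fell in all nuclei, in female nuclei and in male nuclei. In Ctrl fibroblasts, 5.82% of 11088 genes rose and 4.58% fell. The median log2 ratio of all genes considered was -0.01. Different clusters held most fibroblasts at the 2 times. Clusters 4 and 19 held 1143 and 370 of the 2377 nuclei at 7 dpi and 136 and 113 of the 3313 at 21 dpi, and cluster 2 held 352 and 2429. Cluster 7, with 312 and 621 nuclei, had few UMIs, and 36.4% of its nuclei were called doublets. Its leading genes include Igha and Jchain, which are of plasma cells, and Fmod.

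All 17 proliferation genes considered, of 20 in the list, fell, 16 of them in both mice, with a median log2 ratio of -3.11. Mki67, a protein of cycling nuclei, went from 70.3 to 5.32 CPM, and the log2 ratio was -3.49 in female and -3.64 in male nuclei. Top2a, the topoisomerase that untangles replicated DNA, went from 106 to 12.3 CPM. Cluster 24, whose leading genes include the cell division genes Cdc25c, Aspm and Tpx2, held 200 fibroblasts at 7 dpi (8.41%) and 14 at 21 dpi (0.423%), and 22.7% of its nuclei were called doublets, so these ratios too describe a change of clusters. In Ctrl fibroblasts the median of the list was -2.01, and 16 genes fell.

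Of 12 myofibroblast genes, 10 were considered, 7 fell and 0 rose, with a median of -1.25 (-1.20 in Ctrl). Cthrc1, a secreted protein of activated fibroblasts, went from 101 to 11.2 CPM, a log2 ratio of -3.17 (95% interval -3.34 to -3.01), with -3.31 in female and -3.04 in male nuclei. Acta2, smooth muscle actin, went from 14.6 to 2.59 CPM, and Postn, the matrix protein periostin, from 173 to 47.1 CPM. Fn1, fibronectin, was the most abundant gene of the list and went from 912 to 381 CPM, with -1.38 in female and -1.14 in male nuclei. All 4 were lower at 21 dpi in both mice and in Ctrl.

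Collagens of fibrils moved less. The gene Col1a2, a chain of type I collagen, was at 2164 to 2244 CPM (log2 ratio 0.053) and Col1a1 at 912 to 768 CPM (-0.25). Of the 10 fibrillar collagens considered, 3 fell (Col5a3, Col27a1 and Col5a1) and Col24a1 rose, with a median of -0.49 (-0.48 in Ctrl). Basement membrane genes, whose products form the sheet beneath epithelium and around vessels, fell in 10 of 18 with a median of -1.45, and 0 rose. In Ctrl 9 fell and the median was -0.82. Lamc3, a laminin chain, went from 53.7 to 2.62 CPM, a log2 ratio of -4.36 (95% interval -4.71 to -4.03). Lamb1, another laminin chain, went from 212 to 21.8 CPM, and Col4a1, a chain of type IV collagen, from 646 to 219.9 CPM. Lama2 was at 1682 to 1636 CPM, so the laminins did not move together. Small leucine-rich proteoglycans, which bind collagen fibrils, had a median of 0.51, against 0.96 in Ctrl, where 4 rose. Under ADWA11 Fmod went from 7.88 to 44.5 CPM, Prelp from 3.36 to 14.7 CPM and Ogn from 41.7 to 114 CPM. These 3 rose, and none of the 9 fell. Fmod is among the leading genes of cluster 7. Without that cluster, 106 of the 108 fibroblast list genes past 2-fold stayed past it and 0 changed sign. The ratio of Fmod alone without it is not reported here.

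Genes of the arachnoid, the transporter-rich layer of the meninges, had a median of -1.39, with 7 of 11 fallen and 2 risen, against -0.01 in Ctrl. Cluster 9, described at the end, had 4 astrocyte and 3 fibroblast markers raised, and 6 of its 10 leading genes are of this list. It was left unnamed for those leading genes. The list is thus read here in a class without the cluster that its genes lead. With cluster 9 the median was -0.73, and with log-normalised Leiden clustering -2.78. Ranbp3l went from 292 to 10.6 CPM, with log2 ratios of -3.87 in female and -5.72 in male nuclei, and 373 to 53.2 CPM in Ctrl. Slc6a13, a GABA and taurine transporter, went from 86.1 to 5.79 CPM. Aldh1a2, an enzyme of retinoic acid synthesis that is also in the pial list, went from 146 to 17.6 CPM. Slc47a1, an organic cation exporter of the same list, moved the other way, from 68.3 to 609 CPM. Slc47a1, Prok2 and Sfrp4 are also among the leading genes of cluster 2, Slc22a22 of cluster 4, and Lamc3 and Slc6a13 of cluster 19, so their ratios describe the same change of clusters. Of the 8 pial and leptomeningeal genes considered, 4 fell, among them Lamc3, Aldh1a2 and Lama1, which other lists also hold.

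**Figure D2:**
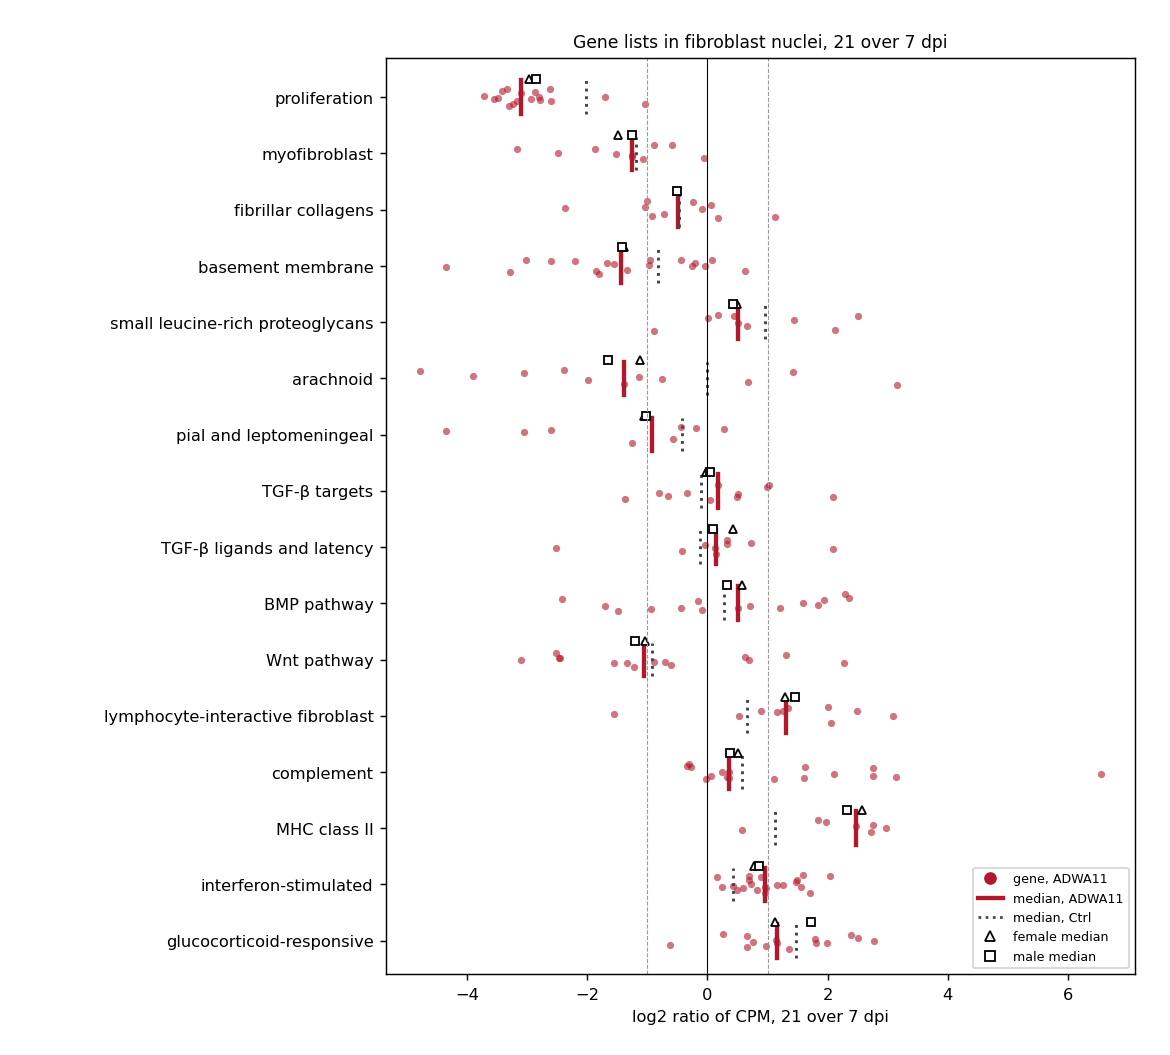
Log2 ratio of CPM at 21 over 7 dpi of each considered gene (red dots) of 16 gene lists in fibroblast nuclei under ADWA11, with the list median for ADWA11 (red bar), for Ctrl (dotted bar), and for ADWA11 female (triangle) and male (square) nuclei. Dashed lines mark 2-fold. Every considered proliferation gene lies below the lower dashed line, arachnoid genes spread from -4.78 to 3.16, and C3 at 6.55 is the highest point.

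The complement gene C3, whose product is cleaved to tag surfaces and attract phagocytes, had the largest rise of the named fibroblast genes. It lies at chr17:57203970-57228136 (mm10, all coordinates from GENCODE M21), and went from 1.23 to 115 CPM, 33 UMIs to 3380, a log2 ratio of 6.55 (95% interval 6.05 to 7.09). Female nuclei went from 0.935 to 97.3 CPM and male nuclei from 2.05 to 116 CPM, and Ctrl fibroblasts from 0.736 to 20 CPM. At 21 dpi C3 was also detected at 12.8 to 54.1 CPM in classes other than fibroblasts (115 CPM) and astrocytes (340 CPM), and so it was above that level in these 2 classes only. Of 17 complement genes considered, 8 rose in both mice and 0 fell, with a median of 0.36. In Ctrl 7 rose and 0 fell, with a median of 0.58. C1s1, a protease of the first component, went from 11.3 to 76.3 CPM, Cfb, factor B of the alternative pathway, from 2.84 to 19.1 CPM, and Serping1, the C1 inhibitor, from 63.5 to 195 CPM.

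Of 14 lymphocyte-interactive genes, 10 were considered, 7 rose and 1 fell, with a median of 1.30 against 0.65 in Ctrl, where 2 rose. Cxcl12, the chemokine that retains CXCR4+ cells, went from 191 to 459 CPM, with 0.74 in female and 1.47 in male nuclei. Cd80, a costimulatory ligand, went from 73.8 to 305 CPM, Icam1, an adhesion ligand, from 34.5 to 87.8 CPM, and Il7, a survival cytokine of lymphocytes, from 2.88 to 11.6 CPM. Il34, a ligand of the CSF1 receptor, fell from 55.3 to 18.8 CPM. Ccl8 in fibroblasts, at 4.11 to 35.0 CPM, is counted among the 7. At 21 dpi it stood within the 24.0 to 94.6 CPM found in the classes other than myeloid nuclei. No expression of fibroblasts' own is read from it, and the part of RNA from other cells was not tested. T/NK markers in the fibroblast class summed to 13.3 CPM at 7 dpi and 86.5 CPM at 21 dpi, B and plasma cell markers to 13.15 and 40.4 CPM, neutrophil markers to 19.6 and 48.6 CPM and OPC markers to 617 and 101 CPM, and their part in the ratios was not tested. Tnfsf10, the death ligand TRAIL, was named by rank and went from 4.52 to 60.0 CPM.

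TGF-β targets in fibroblasts did not move as a group, with a median of 0.17, 2 of 11 risen and 1 fallen, and -0.11 in Ctrl. Ltbp2, a latent TGF-β binding protein family member, went from 40.8 to 174 CPM, with 1.68 in female and 2.27 in male nuclei and a log2 ratio of 0.15 in Ctrl. Tnc, tenascin C, went from 85.9 to 33.2 CPM, but its log2 ratio was 0.44 when the unnamed cluster 21 was counted with the fibroblasts. Ltbp1, which anchors latent TGF-β in matrix, fell from 127 to 22.3 CPM, while the ligands stayed within 2-fold, Tgfb1 at 31.8 to 34.6 CPM, Tgfb2 at 175 to 130.5 CPM and Tgfb3 at 23.0 to 38.1 CPM. Of 15 genes of the related BMP pathway, 6 rose and 3 fell in both mice, and 5 rose and 3 fell in Ctrl. The target genes Id1 and Id3 went from 4.45 to 22.6 CPM and from 17.3 to 84.8 CPM, and the ligands Bmp6 and Bmp7 from 392 to 73.5 CPM and from 35.5 to 10.9 CPM. Wnt pathway genes had a median of -1.06, with 7 of 14 fallen and 2 risen, against -0.92 in Ctrl with 5 fallen and 2 risen. Lef1, a transcription factor of the pathway, went from 74.9 to 8.69 CPM and Axin2, its feedback target, from 31.1 to 10.6 CPM, whereas Sfrp4, a secreted inhibitor, went from 67.5 to 326 CPM.

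Genes responsive to glucocorticoids rose in 9 of 15 (7 in both mice), with a median of 1.15, and in 10 in Ctrl, with a median of 1.47. Tsc22d3 went from 50.8 to 177 CPM and Cebpd from 6.02 to 41.0 CPM. Zbtb16 went from 41.1 to 91.3 CPM, but its log2 ratio was -1.03 in female and 1.99 in male nuclei. Interferon-stimulated genes had a median of 0.95, and 8 of 21 rose, 6 of them in both mice. Gbp5, a guanylate-binding protein, went from 9.30 to 38.1 CPM.

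Other genes named by rank in fibroblasts came up from low levels. Lhx8, a transcription factor, went from 0.561 to 23.9 CPM with 5.22 in female and 4.76 in male nuclei, and Prok2, a secreted prokineticin, from 1.76 to 55.5 CPM with 3.69 in female and 6.94 in male nuclei. Entpd3, an ectonucleotidase, went from 8.71 to 118 CPM and Prg4, the lubricant proteoglycan 4, from 12.3 to 134 CPM. Clec2g (0.561 to 22.3 CPM), Saa3 (0.934 to 22.0 CPM), Krt12 (1.94 to 30.4 CPM) and Ly6a (2.13 to 27.6 CPM) completed the 10. The 10 that fell most were Sphkap (20.2 to 0.341 CPM), Ptprn (31.7 to 0.614 CPM), Ranbp3l, Sidt1 (100.4 to 3.88 CPM), Lamc3, Vstm2a (29.4 to 1.60 CPM), Slc6a13, Slc22a22 (23.1 to 1.57 CPM), Spock3 (79.3 to 5.76 CPM) and Dnajc6 (76.3 to 5.90 CPM). All 20 moved in the same direction in Ctrl.

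In myeloid nuclei antigen presentation and chemokine genes were higher at 21 dpi, and cell-cycle and several homeostatic microglia genes lower. Of 9838 genes considered, 394 (4.0%) rose and 580 (5.9%) fell, and in both mice 283 (2.88%) rose and 441 (4.48%) fell. Without cluster 1, described next, 383 of 9734 rose and 380 fell. In Ctrl myeloid nuclei 371 of 9261 genes (4.01%) rose and 126 (1.36%) fell. Here too the clusters differed. Clusters 0, 3 and 15 held 3065, 1203 and 730 of the 5719 nuclei at 7 dpi and 648, 185 and 45 of the 5729 at 21 dpi, whereas cluster 1 held 701 and 4850. In the whole series 79.6% of cluster 1 came from the ADWA11 library at 21 dpi, and it held 50 and 328 nuclei in Ctrl. With 1 library per time point and condition, an effect of that library and a cell type cannot be told apart. Cluster 5, whose leading genes Siglech, Cx3cr1 and Sall1 are of microglia, held 20 and 1 ADWA11 nuclei, and 1192 and 526 in Ctrl. The cluster that the same 3 genes led in the log-normalised Leiden clustering held 500 and 15 ADWA11 nuclei, and 1603 and 997 in Ctrl. Myeloid markers summed to 4955 and 5078 CPM in the class at 7 and 21 dpi, T/NK markers to 10.0 and 27.8 CPM and OPC markers to 97.8 and 24.3 CPM, and the part of the other cells in the ratios was not tested.

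Genes of MHC class II, which presents peptides to CD4+ T cells, had a median log2 ratio of 2.93 in myeloid nuclei, and 6 of 7 considered rose in both mice (median 1.25 in Ctrl, 5 risen). Ciita, the transactivator that switches the family on, went from 25.8 to 208 CPM, and the log2 ratio was 3.34 in female and 2.53 in male nuclei. Cd74, the invariant chain, went from 72.0 to 549 CPM. H2-Aa went from 28.4 to 265 CPM, a log2 ratio of 3.22 (95% interval 3.14 to 3.31), and H2-Eb1 from 22.6 to 217 CPM. In Ctrl these were at 15.3 to 43.5 CPM and 11.2 to 27.7 CPM. Without cluster 1 the list median was 3.41. Since these genes moved together, the promoters of H2-Aa and H2-Eb1, an α and a β chain, are shown, 250 bases before to 50 bases after the start, from RefSeq (GRCm38.p6), each 5′ to 3′ on the gene's strand. That of H2-Aa is chr17:34287774-34288073 on the minus strand and that of H2-Eb1 chr17:34305617-34305916 on the plus strand. Capitals mark CTGATTGG, the Y box letters known from class II promoters, searched on both strands (reverse complement CCAATCAG). The first base of this match lies at -51 in H2-Aa and at -62 in H2-Eb1, counted from the start.
H2-Aa: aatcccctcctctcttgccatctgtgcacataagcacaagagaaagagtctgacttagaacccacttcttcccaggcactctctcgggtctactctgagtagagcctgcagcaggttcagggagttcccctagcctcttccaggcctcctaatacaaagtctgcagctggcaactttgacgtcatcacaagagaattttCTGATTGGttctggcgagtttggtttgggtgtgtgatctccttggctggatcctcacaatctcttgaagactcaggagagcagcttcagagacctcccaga
H2-Eb1: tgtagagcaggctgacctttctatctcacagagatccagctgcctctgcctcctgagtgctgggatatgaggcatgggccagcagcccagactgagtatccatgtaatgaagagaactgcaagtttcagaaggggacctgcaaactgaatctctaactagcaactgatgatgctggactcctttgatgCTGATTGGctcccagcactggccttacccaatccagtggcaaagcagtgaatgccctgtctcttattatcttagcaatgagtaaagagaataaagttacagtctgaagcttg
The same letters are in 1346 of the 32851 promoters of this length, 4.1%. Of the 10 genes of the list, 7 had a promoter in the table, and H2-Aa, H2-Eb1 and H2-Oa held the match, which is a description of the letters only.

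The summed MHC class II level was highest in dendritic and then in myeloid nuclei. At 21 dpi it was 5912 CPM in dendritic and 1546 CPM in myeloid nuclei, from 5350 and 218 CPM at 7 dpi. In T/NK, endothelial, mural, astrocyte and fibroblast nuclei it was 848, 724, 583, 499.6 and 437 CPM at 21 dpi, from 250.1, 70.9, 100.8, 64.3 and 84.6 CPM. Clusters 9 and 21, and neural progenitors, stood at 424, 409.7 and 286 CPM at 21 dpi. All these classes stood below myeloid nuclei. No expression of their own is read from these levels, and the part of RNA from other cells was not tested. The list medians of 2.47 in fibroblasts, 3.76 in endothelial nuclei and 3.14 in astrocytes, each with 6 genes risen, are given with that reading.

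**Figure D3:**
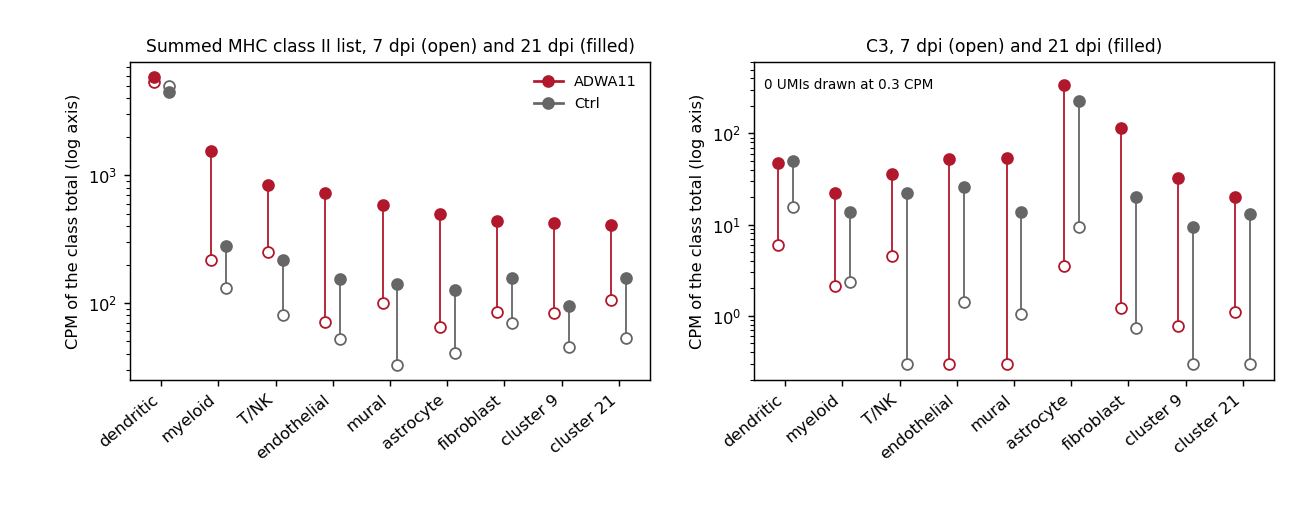
CPM of the class total (log axes) of the summed MHC class II list (left) and of C3 (right) in each class at 7 dpi (open) and 21 dpi (filled), for ADWA11 (red) and Ctrl (grey), with 0 UMIs drawn at 0.3 CPM. MHC class II reaches 1546 CPM in ADWA11 myeloid nuclei against 281 CPM in Ctrl and lies between 409.7 and 848 CPM in the other non-dendritic classes drawn. C3 is highest in astrocytes and next in ADWA11 fibroblasts.

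All 19 proliferation genes considered in myeloid nuclei fell, with a median of -3.15 (-1.27 in Ctrl). Mki67 went from 129.8 to 11.6 CPM and Top2a from 147 to 16.1 CPM. Without cluster 1 the median was -1.01. Hypoxia and glycolysis genes had a median of -0.74 (-0.20 in Ctrl), with 8 of 21 fallen, 3 in both mice, and 1 risen. Egln3, an oxygen-sensing prolyl hydroxylase, went from 12.6 to 1.13 CPM, and Slc2a3, a glucose transporter, from 51.3 to 19.6 CPM.

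Of the 7 chemokines considered, 6 rose, 4 of them in both mice, with a median of 1.49 (1.46 in Ctrl). Ccl8, a ligand for monocytes and T cells, went from 15.6 to 167 CPM. Its female nuclei went from 22.2 to 99.2 CPM and its male nuclei from 7.62 to 189 CPM. Ccl6 went from 57.6 to 204 CPM and Cxcl16, a scavenger receptor and chemokine, from 23.9 to 66.8 CPM. Interferon-stimulated genes differed between female and male nuclei. Of 19 considered, 8 rose over all nuclei and 0 in both mice, with a median of 0.34 in female and 1.06 in male nuclei. Gbp4 had log2 ratios of 0.063 in female and 4.12 in male nuclei and Iigp1, an immunity-related GTPase, 0.015 in female and 2.93 in male nuclei.

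Homeostatic microglia genes had a median of -0.76 (-0.29 in Ctrl), and 5 of 11 fell, 4 in both mice. Fcrls went from 121 to 26.5 CPM, Gpr34 from 47.2 to 11.7 CPM and Cx3cr1, the fractalkine receptor, from 48.3 to 18.1 CPM. P2ry12, the purinergic receptor of resting microglia, was at 119.7 to 74.0 CPM, within 2-fold. Without cluster 1 Fcrls stood at a log2 ratio of 0.27 and Cx3cr1 at 0.02. Tgfbr1, the type I TGF-β receptor, was at 509 to 407 CPM, and of 6 TGF-β targets 1 rose and 2 fell, 1 each way in both mice, with a median of -0.65. Bhlhe40, a transcription factor, went from 15.8 to 36.5 CPM with 1.56 in female and 1.03 in male nuclei, and Smad7, a feedback inhibitor of the pathway, from 28.2 to 8.60 CPM with -2.24 in female and -1.63 in male nuclei.

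Macrophage programmes split. Of 18 scar- and disease-associated macrophage genes, 1 rose and 3 fell, with a median of 0.21 (0.32 in Ctrl, where 3 rose and 2 fell). Spp1, osteopontin, went from 1518 to 148 CPM, a log2 ratio of -3.36 (-1.03 in Ctrl), and Csf1, the growth factor of the lineage, from 169 to 13.2 CPM (-3.68, and -1.40 in Ctrl). Gpnmb was at 1830 to 3094 CPM and Apoe at 2232 to 1802 CPM, both within 2-fold. Of 19 genes of lipid uptake and efflux, 3 rose, Fabp4 from 40.6 to 324 CPM, Nr1h3, the liver X receptor α, from 19.3 to 66.6 CPM and Pparg from 359 to 806 CPM, each in both mice. In Ctrl 4 genes of this list rose. Fabp4, Slamf8 and Ccl6 are also among the leading genes of cluster 1, Spp1 of cluster 3, F13a1, Stab1 and Clec10a of cluster 0, and Kif4, Cdca2 and Top2a of cluster 15, so their ratios describe the same change of clusters. Without cluster 1 the log2 ratio was -2.91 for Spp1, 2.998 for Clec10a and -0.048 for Stab1. Among 9 border-associated macrophage genes, 1 rose, Clec10a from 31.6 to 74.3 CPM, and 3 fell, F13a1 and Stab1 in both mice and Folr2 over all nuclei (17.9 to 8.45 CPM). F13a1 went from 1100 to 291 CPM and Stab1 from 1282 to 458 CPM, and without cluster 1 the F13a1 ratio was 0.70 and the median of the list moved from -0.12 to 1.46.

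**Figure D4:**
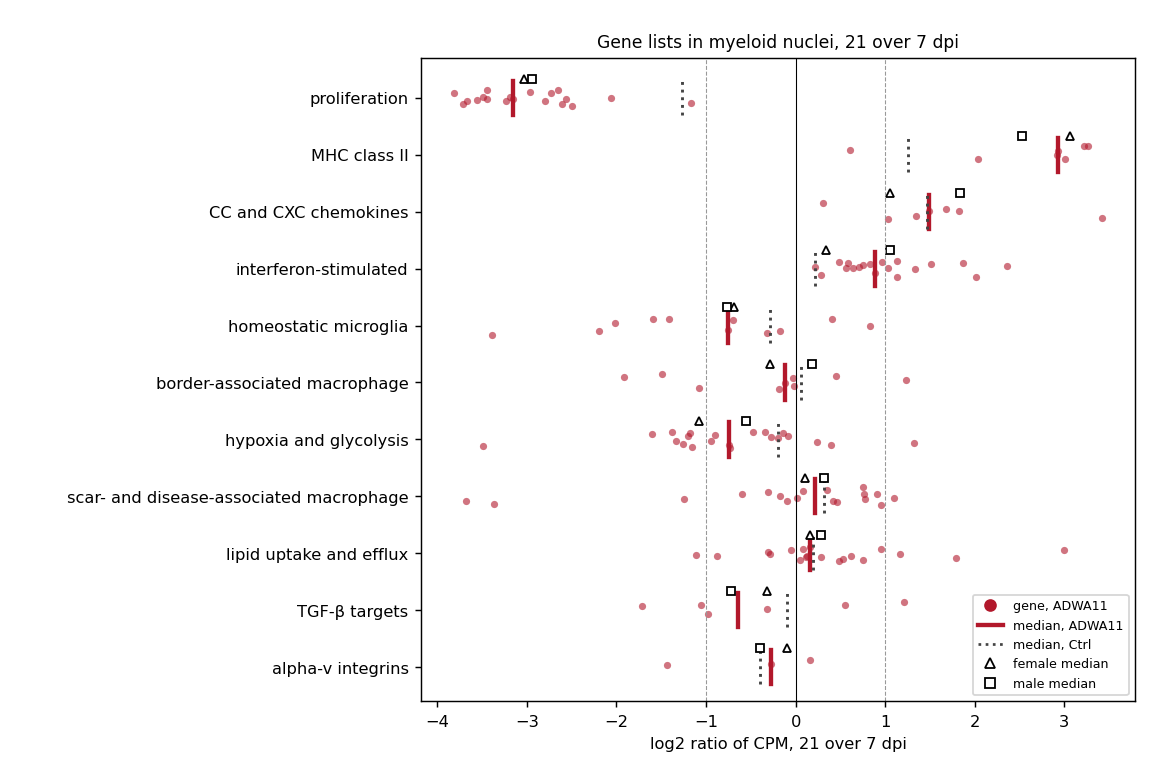
Log2 ratio of CPM at 21 over 7 dpi of each considered gene (red dots) of 11 gene lists in myeloid nuclei under ADWA11, with list medians for ADWA11 (red bar), Ctrl (dotted bar), and ADWA11 female (triangle) and male (square) nuclei. Dashed lines mark 2-fold. Proliferation lies at a median of -3.15 against -1.27 in Ctrl and MHC class II at 2.93 against 1.25, and the female and male medians of the interferon list stand apart at 0.34 and 1.06.

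By rank the myeloid genes that rose were H2-M2 (chr17:37480851-37483552), an MHC class Ib gene, from 0.155 to 20.6 CPM (7 UMIs to 696) with 8.45 in female and 5.81 in male nuclei, then Dysf (3.74 to 54.1 CPM, against 2.45 to 2.77 CPM in Ctrl), Slamf8 (4.74 to 65.7 CPM), which leads cluster 1, Ccl8, Ccdc148 (25.2 to 258 CPM), H2-Eb1, H2-Aa, Tenm4 (129 to 1172 CPM), Paqr9 (2.61 to 22.4 CPM) and Ciita. Dysf, a membrane repair protein, was at 50.8 CPM in all other nuclei of the 21 dpi library together, so its level in myeloid nuclei was little above theirs. Kcnma1, the large-conductance calcium-activated potassium channel at chr14:23289431-24014491, fell most, from 124 to 3.20 CPM, a log2 ratio of -5.28 (95% interval -5.57 to -5.005), and went from 386 to 203 CPM in Ctrl. Fgf13, an intracellular FGF family member, fell from 366 to 28.3 CPM with -4.17 in female and -3.47 in male nuclei, whereas Ctrl went from 634 to 877 CPM. Pld5 fell from 51.6 to 2.79 CPM, with a ratio of 0.055 in Ctrl. Kif4, Kntc1, Cenpf, Depdc1b, Cdca2 and Sgo2a, all of chromosome segregation or cell division, fell by 3.60 to 4.34 on the log2 scale, and Csf1 was the tenth.

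In T/NK nuclei cell-cycle genes were lower at 21 dpi. Of 8618 genes considered, 345 (4.0%) rose and 299 (3.47%) fell, and 122 (1.42%) rose and 113 (1.31%) fell in both mice, from 72 to 239 female and 35 to 629 male nuclei. In Ctrl 4.45% of 4718 genes rose and 1.59% fell. Whether more genes rose or fell depended on the setting. With cluster 25, an unnamed cluster of 29 and 46 nuclei whose leading genes include S100a8, S100a9 and Cd3d, 318 of 9121 genes rose and 746 fell. With log-normalised Leiden clustering 335 of 8904 rose and 647 fell, and with the percentile filter of the study's methods 270 of 8585 and 680. Without called doublets 330 of 7623 rose and 392 fell, and with the mean CPM per nucleus 367 of 8618 and 391. Male nuclei alone went the other way, with 827 of 6894 risen and 292 fallen. Of 15 proliferation genes, 13 fell, with a median of -1.89 (-1.26 in Ctrl, where 10 fell). Top2a went from 280 to 77.8 CPM, and Cenph, a centromere protein, from 37.4 to 7.59 CPM. Cluster 26 made up 12.5% of the class at 7 dpi (18 nuclei) and 2.21% at 21 dpi (25 nuclei), and the other T/NK nuclei were of cluster 11. T/NK markers summed to 6077 and 6531 CPM in the class, fibroblast markers to 848 and 1162 CPM, myeloid markers to 1541 and 1314 CPM and OPC markers to 141 and 36.9 CPM, and the part of the other cells in the ratios was not tested.

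Foxp3, the factor that defines regulatory T cells, went from 11.98 to 58.8 CPM, 8 UMIs to 217, a log2 ratio of 2.29 (95% interval 1.29 to 3.53). It was 4.43 in female and 0.36 in male nuclei, and -0.54 in Ctrl. Ikzf2, Helios, went from 734 to 1600 CPM with 2.21 in female and -0.21 in male nuclei, and Ctla4, an inhibitory receptor, was at 74.9 to 121 CPM with 1.84 in female and -0.58 in male nuclei. The list of 12 had a median of 0.66, with 1.01 in female and -0.05 in male nuclei, and 4 rose over all nuclei but 1, Tnfrsf4, in both mice. Tnfrsf4, the costimulatory receptor OX40, went from 10.5 to 38.8 CPM. Of 15 cytotoxic genes 3 rose and 1 fell, 1 each way in both mice. Their median was 0.53, with -0.083 in female and 0.89 in male nuclei, and -0.27 over all nuclei with the percentile filter. Klrd1, an NK receptor, had -0.083 in female and 2.00 in male nuclei, and Ccl4, an inflammatory chemokine, 2.34 in female and 2.399 in male nuclei (-0.30 over all nuclei with the percentile filter). T helper and γδ T cell genes fell in 4 of 10, with 1 in both mice, and the median was 0.11 in female and -1.48 in male nuclei. Cd163l1, a marker of γδ T cells, went from 261 to 52.0 CPM with -1.50 in female and -3.29 in male nuclei. Checkpoint genes rose in 3 of 10, and Tigit, an inhibitory receptor, did so in both mice, from 5.99 to 40.4 CPM (4 UMIs to 149). Batf, a transcription factor of effector and regulatory T cells, went from 34.4 to 135 CPM (-0.39 in Ctrl), Hopx from 10.5 to 50.7 CPM, Klra1, an NK receptor gene with near-identical relatives, from 35.9 to 173 CPM, and Art2b and Sgsh from 11.98 to 48.0 CPM and 4.49 to 21.7 CPM. At 7 dpi Art2b had 8 UMIs and Sgsh 3 UMIs, so their ratios in female and male nuclei rest on very few counts. Pole, Brip1, Cenpk and Cep89 were the others that fell by rank, by 1.49 to 1.82 on the log2 scale.

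The dendritic class held more than dendritic cells. Its 8 measured neutrophil markers summed to 198 CPM at 7 dpi and 759 CPM at 21 dpi, its B and plasma cell markers to 320 and 925 CPM, and its dendritic markers to 893 and 1002 CPM. At 7 dpi haemoglobin and other erythroid markers made up 39940 CPM, and 11.3 CPM at 21 dpi. Log-normalised clustering placed neutrophils apart, and the log2 ratio of the dendritic share was then 0.96. The part of these cells in the gene ratios was not tested beyond that clustering. Of 7244 genes considered, 426 (5.88%) rose and 74 (1.02%) fell, and 160 (2.21%) rose and 27 (0.373%) fell in both mice. With log-normalised clustering, however, 207 of 6392 rose and 166 fell. In Ctrl 5.29% of 4822 genes rose and 2.94% fell. Slfn4 and Nlrp12 were among the 6 that rose most, from 8.38 to 127 CPM and 5.99 to 47.3 CPM, and the Nlrp12 ratio was -2.51 with log-normalised clustering. Oas2, an interferon-induced enzyme, went from 9.58 to 57.1 CPM, and Prdx4 from 4.79 to 28.3 CPM. Tgfbr1 led those that fell, from 704 to 254 CPM with -1.57 in female and -1.63 in male nuclei and 1873 to 1055 CPM in Ctrl. Wdhd1, Cdk2, Naa40, Golm1 and Haus8 fell by 1.07 to 1.44 on the log2 scale.

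In endothelial nuclei (215 at 7 dpi and 417 at 21 dpi), 622 of 9375 genes rose (6.63%) and 422 fell (4.5%), with 371 (3.96%) and 250 (2.67%) in both mice. In Ctrl 9.95% of 9946 genes rose and 1.97% fell. All 16 proliferation genes fell, with a median of -3.31 (-2.26 in Ctrl, where 13 fell). Ncapg, Neil3, Tpx2, Ckap2l, Kif11 and Clspn, of chromosome condensation, repair and division, were the 6 that fell most, by 3.62 to 4.49. Chrm2, the M2 muscarinic receptor at chr6:36388084-36528414, rose most, from 2.995 to 196 CPM, a log2 ratio of 6.03 (95% interval 4.90 to 7.49), and from 0 to 80.2 CPM in Ctrl. Stab2, a hyaluronan scavenger receptor of sinusoids, went from 8.49 to 176 CPM with 20.1 to 184 CPM in female and 0 to 104 CPM in male nuclei. Clu (2.995 to 63.4 CPM), Wdr17 (6.99 to 112 CPM), Gfap (3.49 to 38.9 CPM) and Lcn2 (2.496 to 26.2 CPM) were the others. In Ctrl endothelial nuclei Gfap went from 3.35 to 90.2 CPM and Lcn2 from 0.956 to 80.2 CPM. Gfap, a filament of astrocytes, was at 653 CPM in astrocytes of the ADWA11 library at 21 dpi, and astrocyte markers in the endothelial class summed to 186 and 334 CPM. Of the nuclei in the endothelial cluster over the 6 libraries, 19.9% were called doublets. Without called doublets 417 of 7267 genes rose and 353 fell.

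Blood-brain barrier genes had a median of -0.70 under ADWA11 and 0.50 in Ctrl, and female and male nuclei differed. Of 18 considered, 7 fell over all nuclei and 1 in both mice, with a median of -0.08 in female and -1.30 in male nuclei. Cldn5, the main claudin of the barrier, went from 358 to 151 CPM with -0.95 in female and -1.44 in male nuclei, and 234 to 352 CPM in Ctrl. Slc7a5, an amino acid transporter, was at 90.3 to 55.2 CPM with -0.024 in female and -1.58 in male nuclei and a ratio of 1.32 in Ctrl. Itm2a went from 154 to 63.0 CPM and was the gene that fell in both mice. Fibroblast markers in the class summed to 1587 CPM at 7 dpi and 2796 CPM at 21 dpi, T/NK markers to 11.5 and 135 CPM and OPC markers to 616.5 and 151 CPM, and their part in this was not tested. Among 8 adhesion genes, Selp (P-selectin), Vcam1 and Icam1 rose, from 7.49 to 56.9 CPM, 59.9 to 212 CPM and 29.9 to 64.6 CPM, and Icam2 fell from 43.4 to 18.0 CPM. Basement membrane genes fell in 3 of 16, Col18a1, Nid2 and Lamb1, each in both mice, against 7 fallen in Ctrl. Their median was -0.67, and -0.81 in Ctrl. Glucocorticoid-responsive genes rose in 7 of 12 in both mice, with a median of 1.19 (1.13 in Ctrl).

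Mural nuclei were few (72 and 83), and 13.4% of their cluster over the 6 libraries were called doublets. Of 4446 genes considered, 264 (5.94%) rose and 335 (7.53%) fell, in both mice 157 (3.53%) and 149 (3.35%), but the median of all genes was -0.13, and with TMM scaling 335 rose and 249 fell. In Ctrl 4.8% of 5878 genes rose and 4.75% fell. Smooth muscle genes had a median of 1.93 (0.27 in Ctrl), and 8 of 10 rose, 6 in both mice. Myh11, smooth muscle myosin, went from 197 to 1291 CPM with 2.49 in female and 3.40 in male nuclei, and Myocd, the cofactor that drives the contractile programme, from 34.1 to 277 CPM, with 93.6 to 111 CPM in Ctrl. Kcnab1, a potassium channel subunit, went from 334 to 3370 CPM and Acta2 from 237 to 644 CPM. Pericyte genes had a median of 0.28 over all nuclei (0.079 in female and -0.62 in male nuclei), with 0 risen and 2 of 9 fallen, Abcc9, a subunit of the ATP-sensitive potassium channel, from 799 to 363 CPM, and Atp13a5 from 85.3 to 27.03 CPM. Atp13a5 had log2 ratios of 2.69 in female and -3.60 in male nuclei. Rgs5 was at 1129 to 1372 CPM. In the mural class OPC markers summed to 268 CPM at 7 dpi and 777 CPM at 21 dpi, T/NK markers to 24.8 and 158 CPM and myeloid markers to 1502 and 1063 CPM, and their part in the ratios was not tested. All 9 proliferation genes considered fell (median -3.50, and -3.55 in Ctrl). Prdm16 (12.4 to 282 CPM), Rcan2 (154 to 1786 CPM), Igfbp4 (17.1 to 153 CPM) and Lama5 (12.4 to 101 CPM) rose by rank besides, and Plxdc2 (1739 to 275 CPM), Fam111a, Ezh2, Taco1, Heatr6 and Chn1 fell, the last 5 by 1.66 to 2.35 on the log2 scale.

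Astrocytes (259 and 446 nuclei) had 1039 of 10594 genes risen (9.81%) and 348 fallen (3.28%), with 681 (6.43%) and 203 (1.92%) in both mice. In Ctrl 10.1% of 11641 genes rose and 3.83% fell. Their own markers summed to 3568 and 4902 CPM, and 16.1% of their cluster over the 6 libraries were called doublets. OPC markers in the class summed to 5849 and 2959 CPM and T/NK markers to 14.6 and 88.5 CPM, and their part in the ratios was not tested. C3 went from 3.56 to 340.1 CPM, with 7.24 in female and 7.16 in male nuclei and 9.41 to 227 CPM in Ctrl. Lcn2, a lipocalin of reactive astrocytes, went from 0.355 to 129.9 CPM, 1 UMI to 408 (log2 ratio 8.51, interval 6.03 to 13.8). In Ctrl astrocytes Lcn2 went from 0.588 to 235 CPM, 1 UMI to 2096. Steap4, a metalloreductase, went from 2.84 to 107 CPM. Gfap itself stood at 588 to 653 CPM, a log2 ratio of 0.15. Of 15 reactive astrocyte genes 5 rose, all in both mice, and Tnc and Socs3 fell over all nuclei only. Homeostatic astrocyte genes rose in 3 of 15 against 8 in Ctrl, with a median of 0.39 against 1.12. Slc6a11, a GABA transporter, went from 7.46 to 32.5 CPM, Slc1a2, the main glutamate transporter, was at 471 to 917 CPM, and Gpc5, a glypican, fell from 987 to 268 CPM with -1.82 in female and -2.52 in male nuclei.

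Complement genes rose in 6 of 14 in astrocytes, with C4b from 75.0 to 289 CPM and Serping1 from 9.95 to 73.5 CPM. Their median was 0.60, and 0.93 in Ctrl, where 6 rose as well. Interferon-stimulated genes rose in 6 of 15, 5 of them in both mice, and in 5 in Ctrl. By rank Chil1 (1.78 to 44.3 CPM), Tex11 (2.13 to 28.7 CPM) and Rassf9 (3.56 to 47.4 CPM) also rose, and Etnppl, an enzyme of phosphoethanolamine breakdown, went from 0 to 63 UMIs, at least 4.23 higher on the log2 scale when 7 dpi is set at the floor of 3 UMIs. Kcnj6, a G-protein-gated potassium channel, fell most, from 285 to 1.59 CPM, with 227 to 11.8 CPM in Ctrl. Gad2 (39.5 to 1.27 CPM), which makes GABA in inhibitory neurons, Inpp5j, Grik1, Cdh8 and Ptprn followed, the last 4 by 4.41 to 4.62 on the log2 scale. Neuron markers in the class summed to 96.0 and 47.8 CPM.

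**Figure D5:**
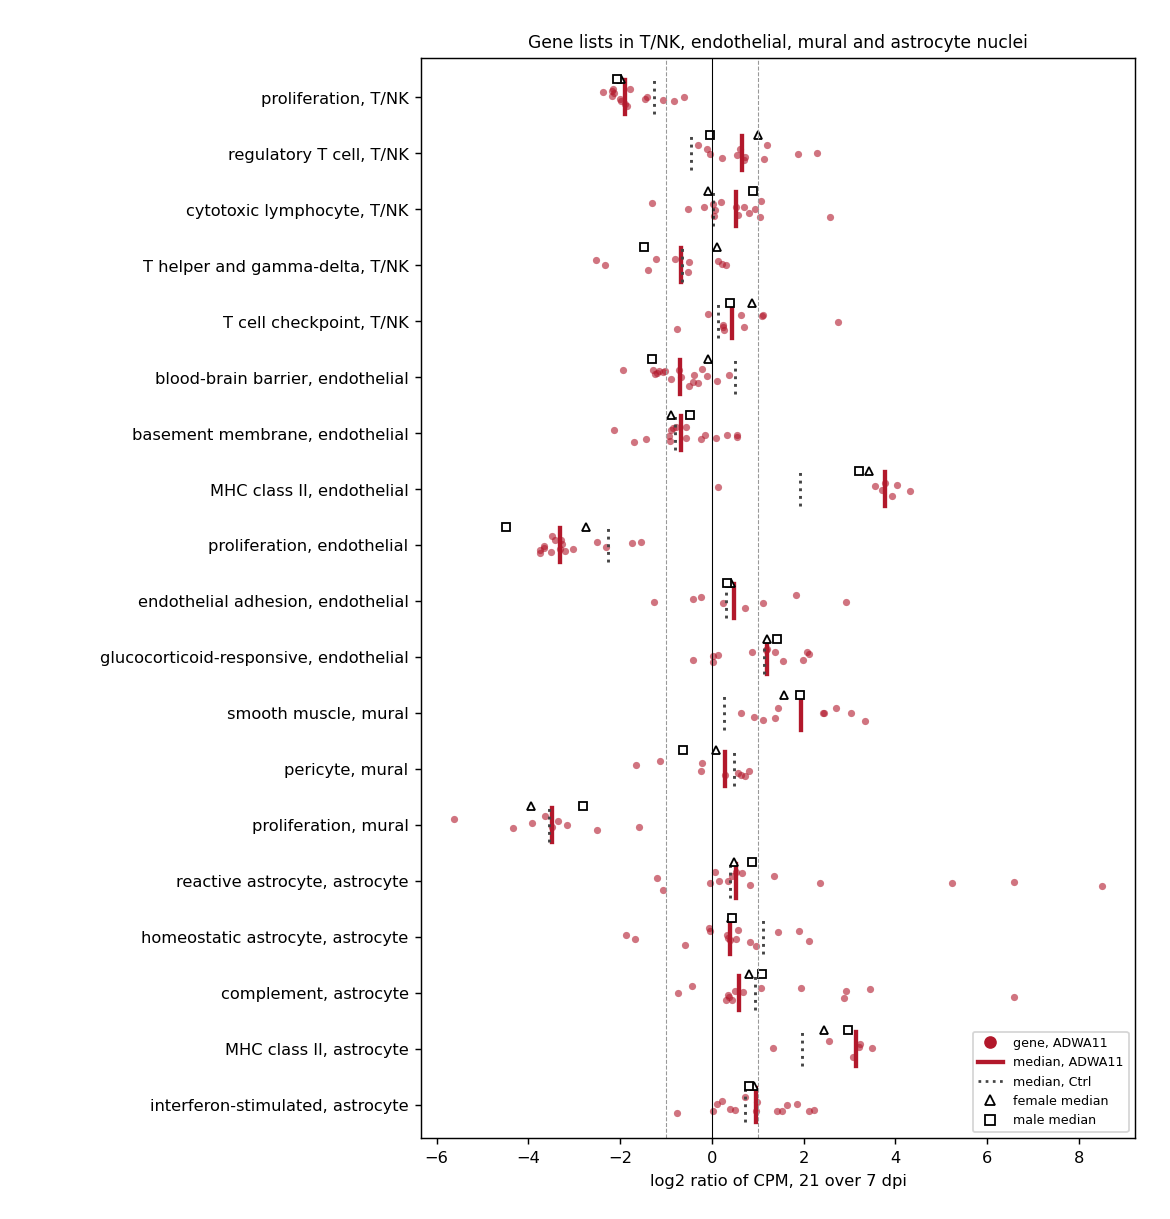
Log2 ratio of CPM at 21 over 7 dpi of each considered gene (red dots) of 19 gene lists in T/NK, endothelial, mural and astrocyte nuclei under ADWA11, with list medians for ADWA11 (red bar), Ctrl (dotted bar), and ADWA11 female (triangle) and male (square) nuclei. Dashed lines mark 2-fold. Smooth muscle genes in mural nuclei lie at 1.93 against 0.27 in Ctrl, and the female and male medians stand apart for regulatory T cell (1.01 and -0.05) and blood-brain barrier genes (-0.08 and -1.30).

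A pair of clusters that hold fibroblast markers stayed unnamed. Cluster 9, led by Trpm3, Slc6a20a, Ptgds and Slc13a4, held 607 nuclei at 7 dpi and 446 at 21 dpi under ADWA11, 5.56% and 3.52% of the kept nuclei, a log2 ratio of -0.66 with 0.12 in female and -1.22 in male nuclei. In Ctrl its share went from 1.71% to 5.91%. The direction under ADWA11 turned with the clustering. With log-normalised Leiden clustering a cluster with Trpm3, Slc6a20a and Ptgds among its leading genes held 93 ADWA11 nuclei at 7 dpi and 855 at 21 dpi, and 49 and 1537 in Ctrl. Fibroblast markers in cluster 9 summed to 8605 CPM at 7 dpi and 6734 CPM at 21 dpi, and astrocyte markers to 2708 and 1783 CPM. OPC markers summed to 428 and 55.8 CPM, T/NK markers to 18.9 and 66.8 CPM and osteoblast markers to 126 and 284 CPM, and their part in the ratios was not tested. Of 11217 genes considered in cluster 9 under ADWA11, 809 (7.21%) rose and 506 (4.51%) fell, 526 (4.69%) and 288 (2.57%) of them in both mice. In Ctrl 10.5% of 10053 genes rose and 3.36% fell. Slc47a1, an organic cation exporter, went from 8.73 to 258 CPM, Tnfsf10 from 3.27 to 39.8 CPM and Klf2, a transcription factor, from 1.56 to 35.5 CPM, and all 3 also rose in the fibroblast class. Sidt1 went from 430.2 to 15.1 CPM, Postn from 87.2 to 4.65 CPM and the imprinted RNA H19 from 76.4 to 5.23 CPM.

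Cluster 21, led by the bone genes Bglap, Ibsp and Sp7, went from 103 to 319 nuclei, 0.944% to 2.52%, a log2 ratio of 1.42 (1.56 in both female and male nuclei). In Ctrl the ratio was 1.33 over all nuclei, with -0.57 in female and 4.87 in male nuclei. Its osteoblast markers summed to 7580 CPM at 7 dpi and 8648 CPM at 21 dpi, against 644 and 686 CPM in the fibroblast class. Of 7633 genes considered, 434 (5.69%) rose and 218 (2.86%) fell, 170 (2.23%) and 64 (0.838%) of them in both mice. In Ctrl 7.99% of 5605 genes rose and 5.23% fell. Caln1 went from 13.4 to 239 CPM and Chrdl1, a BMP antagonist, from 31.2 to 255 CPM, while Fras1 went from 402 to 90.4 CPM and Fn1 from 1014 to 320 CPM. Caln1 stood at 218 and 175 CPM in Ctrl. Whether bone or dura was taken with the lesions is not given in the labels.

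The blocked integrin was itself expressed at both times. Itgb8, its β8 chain, was at 225 to 142 CPM in fibroblasts, 209 to 247 CPM in astrocytes and 34.4 to 122 CPM in T/NK nuclei, where female and male nuclei differed at 4.39 and 0.42. In myeloid nuclei it was at 4.56 to 7.35 CPM and did not pass the detection minimum. Itgav, the αv chain, was at 244 to 164 CPM in fibroblasts and 224 to 133 CPM in astrocytes, both within 2-fold, and fell in myeloid nuclei from 675 to 249 CPM with -1.50 in female and -1.35 in male nuclei (859.8 to 471 CPM in Ctrl). The antibody acts on the protein, so these levels do not check the treatment labels.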

How the data were processed

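Nuclei of dissected photothrombotic lesions were profiled by 10x Chromium 3′ single-nucleus RNA-seq, and the 6 deposited matrices hold whole-number UMI counts of 32285 genes per barcode. Per the file headers the authors made these counts with Cell Ranger 7.2.0 (the submitters' processing notes name 7.1.0) on mm10. The members and gene lists described here were chosen with earlier results of these data known.

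Barcodes with at least 1000 UMIs and under 5% mitochondrial UMIs were kept. All 6 libraries were clustered together (Seurat 5.3.0 in R 4.3.3, sctransform 0.4.2 with 3000 variable genes, 30 principal components, Louvain resolution 0.5). Clusters were named when at least 3 of a class's markers were raised 2-fold in at least 5% of nuclei and the 10 leading genes did not go against the name, a condition set after the clusters were seen. Doublets were called by scrublet (scanpy 1.11.5) at 0.8% per 1000 barcodes. Clusters with over 50% called were to be left out, and other called nuclei were kept. For every class the UMI counts of a library's nuclei were added and scaled to their total without mitochondrial genes (CPM). Ratios have exact conditional binomial intervals and shares Clopper-Pearson intervals (scipy 1.17.1). Only the ratio intervals were checked on simulated data. That check drew every count independently, so it cannot show how they hold where UMIs group within nuclei. Both kinds of interval cover counting error only, and no p-value is given with 1 library per side. Xist, Tsix and Y-linked genes (727) were left out of gene counts, and other X-linked genes were kept. Genes were named by the size of the ratio, 10 per direction in fibroblasts and myeloid nuclei and 6 in other classes, among those past 2-fold in all, female and male nuclei, with at least 20 CPM in the higher library, under 10% of UMIs from 1 nucleus and a level not below that of all other nuclei, leaving out numbered gene models. Some genes that this rule or the lists name are not reported here. Alternatives were the percentile filter of the study's methods (2.5% at each end), log-normalised Leiden clustering, called doublets left out, each sex, other count minimums, TMM scaling (edgeR 4.0.16), the mean CPM per nucleus and leaving out the 5 nuclei with most UMIs of a gene. Moving single clusters in or out of a class was added after seeing the data. Promoters came from RefSeq.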

Additional observations from a re-analysis of the deposited data

Results flagged for a closer look

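A result is listed here when ADWA11 and Ctrl moved in opposite directions from 7 to 21 dpi. This had to hold in all, the female and the male nuclei of each condition, past 2-fold for a gene and with a counting interval clear of 0 for a share. With 1 library per time point and condition, the difference between the 2 courses was not tested. The dendritic share had a log2 ratio of 1.51 under ADWA11 and -0.84 in Ctrl. Its class also held neutrophil and B cell markers, and log-normalised Leiden clustering, which placed 11 and 147 ADWA11 nuclei in a neutrophil cluster of their own, gave 0.96 under ADWA11. Of 9075 genes considered in myeloid nuclei under both conditions, F10, which encodes coagulation factor X, was the 1 with opposite courses, at 1.30 (14.4 to 35.5 CPM) under ADWA11 and -1.28 (16.7 to 6.89 CPM) in Ctrl. Of 9131 genes in endothelial nuclei 2 were found. Adgrb3, an adhesion receptor known from synapses, stood at -1.12 (61.4 to 28.2 CPM) and went from 13.4 to 107 CPM in Ctrl, and Ndnf, a secreted neurotrophic factor, at -1.38 (33.9 to 13.1 CPM) and 1.69 in Ctrl. OPC markers in the endothelial class went from 616.5 to 151 CPM under ADWA11 and from 264 to 286 CPM in Ctrl. Astrocyte markers went from 186 to 334 CPM and from 213 to 549 CPM, and the part of these cells was not tested. Of 10463 genes in astrocytes, Cd52, a surface glycoprotein of leukocytes, stood at 1.64 (6.04 to 18.8 CPM) and -1.30 in Ctrl. T/NK markers in the astrocyte class went from 14.6 to 88.5 CPM under ADWA11 and from 78.8 to 45.4 CPM in Ctrl. Neutrophil markers went from 18.1 to 41.1 CPM and from 63.5 to 35.1 CPM, and B and plasma cell markers from 40.2 to 45.9 CPM and from 12.4 to 28.7 CPM. The part of these cells in the Cd52 ratios was not tested. No gene had opposite courses by this measure in fibroblast (10934), T/NK (4703), dendritic (4794) or mural nuclei (4406 genes considered in both). F10, Adgrb3, Ndnf and Cd52 were chosen after their values were seen.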

How the results depend on the processing

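No paired analysis was possible because each time point is 1 library and the labels give no replicate numbers. Single-library ratios carry no error between mice, and the small classes (mural, neuron, oligodendrocyte) rest on few nuclei. The female and male nuclei are 1 mouse each per time, and a different animal at each time. Where a value moved, the cause was not tested unless the setting itself takes genes or nuclei away. Of the 124 genes named by rank, all kept their side of 2-fold with TMM scaling, 123 without called doublets, 122 of 123 with the mean CPM per nucleus, 121 without the 5 nuclei with most UMIs, 97 of the 100 computed with log-normalised Leiden clustering and 75 of 76 with the percentile filter. Under that filter the dendritic and mural clusters went unnamed and gave no value. In female and male nuclei the naming rule itself required the call. The rule took the largest ratios, and TMM shifted log2 ratios by 0.020 in fibroblasts and 0.136 in mural nuclei, so TMM scaling was a weak check of these calls. The rule had also limited the share of 1 nucleus before the 5 nuclei with most UMIs were left out. Of the 282 list genes past 2-fold, 280 stayed past it with TMM scaling, 271 without called doublets, 268 without the 5 nuclei with most UMIs, 266 with log-normalised clustering, 257 with the mean CPM per nucleus, 257 in male nuclei (4 changed sign) and 244 in female nuclei (7 changed sign), and 250 of 265 did with the percentile filter. Without cluster 1, 39 of 63 in myeloid nuclei did and 5 changed sign.

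Log2 ratios of shares moved as follows. In female nuclei they were 0.56 for fibroblasts, -0.62 for myeloid, 2.35 for T/NK, 1.49 for endothelial, 0.71 for mural, 1.37 for astrocyte, -3.84 for OPC and -1.25 for neuron nuclei, and cluster 9 turned to 0.12. In male nuclei they were 0.10 for fibroblasts, 3.09 for T/NK, 1.05 for dendritic, -0.64 for mural, -5.92 for OPC, 2.10 for neural progenitor nuclei against the floor and -1.22 for cluster 9, and myeloid turned to 0.040, endothelial to -0.022 and astrocyte nuclei to -0.35. With log-normalised clustering fibroblasts turned to -0.19 and neurons to 0.63, and the dendritic ratio was 0.96. With the percentile filter fibroblasts stood at 0.13 and T/NK at 2.26. Without called doublets neurons stood at -5.44. Without neural classes in the denominator fibroblasts stood at 0.13 and myeloid nuclei at -0.35. Fibroblasts stood at 0.12 with cluster 9 and 0.17 without cluster 7, and myeloid nuclei at -2.73 without cluster 1.

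The number of genes considered changed with the setting, so each count of genes past 2-fold is given with it. With at least 20 UMIs and no detection minimum, 2 choices changed together, they were 3649 of 18116 in fibroblast and 3125 of 17184 in myeloid nuclei. In T/NK nuclei they were 1614 of 11735, in dendritic 1238 of 10096, in endothelial 1900 of 12151 and in mural nuclei 1393 of 7678. Astrocyte nuclei had 2399 of 13500, cluster 9 had 2204 of 13838 and cluster 21 had 1439 of 10694. With at least 200 UMIs alone they were 1496 of 11861 in fibroblast, 974 of 9838 in myeloid and 165 of 4623 in T/NK nuclei. In dendritic nuclei they were 145 of 3181, in endothelial 332 of 4574 and in mural nuclei 132 of 1239. Astrocyte nuclei had 523 of 5503, cluster 9 had 522 of 6969 and cluster 21 had 166 of 3098. In female nuclei they were 327 of 4512 in T/NK, 197 of 3235 in dendritic and 587 of 5681 in endothelial nuclei. Female mural nuclei had 341 of 1968 and female astrocyte nuclei 837 of 7124. In male nuclei they were 1119 of 6894 in T/NK, 625 of 4865 in endothelial, 239 of 1440 in mural and 905 of 6034 in astrocyte nuclei. T/NK nuclei had 982 of 8904 with log-normalised clustering and 1064 of 9121 with cluster 25.

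List medians moved too. In female nuclei they were 0.34 for interferon-stimulated genes in myeloid, -2.31 for proliferation and -0.15 for cytotoxic genes in T/NK, and 0.045 for blood-brain barrier and -0.95 for basement membrane genes in endothelial nuclei. In male nuclei they were -0.052 for regulatory T cell and 1.29 for cytotoxic genes in T/NK, and -4.59 for proliferation in endothelial nuclei. Gene sets considered were chosen anew within each sex here, which is why some differ from the medians in the report. Fibroblast proliferation stood at -3.63 without called doublets, -2.72 with log-normalised clustering and -3.81 with the percentile filter, where cytotoxic genes stood at -0.27. Without cluster 1 the myeloid medians were -1.01 for proliferation, 3.41 for MHC class II, 1.51 for interferon-stimulated, 1.46 for border-associated macrophage, -0.54 for scar- and disease-associated macrophage and -0.11 for lipid genes.

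Single genes that changed sign were Zbtb16 in fibroblasts (-1.03), Gbp5 in myeloid nuclei (-0.026), Klrd1 (-0.083) and Il23r (0.17) in T/NK, Slc38a5 in endothelial (0.47) and Atp13a5 in mural nuclei (2.69) in the female. In the male they were Ikzf2 (-0.21) and Pdcd1 (-0.20) in T/NK, Smtn in mural nuclei (-0.15) and Trpm3 in astrocytes (0.69). Trpm3 was also at 0.79 without called doublets and 0.092 without the 5 nuclei with most UMIs, where Slc38a5 was at 0.054. Log-normalised clustering gave Nlrp12 in dendritic nuclei -2.51 and Ptgds in fibroblasts -0.15, and the percentile filter gave Ccl4 in T/NK -0.30. With cluster 21 Fap (0.060) and Tnc (0.44) and with cluster 9 Slc6a20a (0.081) changed sign in fibroblasts. Without cluster 1 Fcrls (0.27), Cx3cr1 (0.020), Folr2 (0.64), F13a1 (0.70) and Atp6v0d2 (-0.59) did so in myeloid nuclei.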
